A study of Arabidopsis thaliana with 12 samples.

Results

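Glutathione S-transferases (GSTs) of the tau and phi classes were followed in rosette leaves of Arabidopsis thaliana by RNA sequencing. The set is defined by gene identifier and class: 28 tau genes (GSTU1 to GSTU28) and 9 phi genes (GSTF2, GSTF3, GSTF7 to GSTF11, GSTF13 and GSTF14), 37 of the 34262 genes in the count table. GSTU21 had no count in any library and was left out, so 36 genes had a count, 27 of the tau and 9 of the phi class. Of these, 31 passed the filter on low counts (24 tau, 7 phi) among 22351 genes tested.

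Leaves came from 4 genotypes with 3 libraries each: ka120 pad4 and ka120 ndr1, both double mutants, the single mutant ka120, and wild type Col-0. All mutants were in the Col-0 background, and both double mutants carry the ka120 mutation, so they have ka120 as their own reference. Plants were 3 weeks old, grew in soil at 22 °C in days of 16 h light and 8 h dark, and received no treatment. KA120 is a nuclear transport receptor of the importin-beta family that restrains immunity, PAD4 is the partner of EDS1 in signalling from TIR-type immune receptors, and NDR1 is a membrane protein needed by several coiled-coil immune receptors. The sources used here give no alleles and do not say whether libraries of 1 genotype are separate plants, so the p-values measure only the spread between libraries, which may be technical.

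GSTs join the tripeptide glutathione to reactive or toxic compounds, and the conjugates are then moved into the vacuole by transporters of the ABCC family and broken down. The tau and phi classes are the largest in plants and are best known for detoxifying herbicides and for their induction by pathogens, salicylic acid, auxin and oxidative stress. Some members have more specific work. GSTF2 binds indolic compounds such as camalexin, GSTU13 acts in the turnover of indole glucosinolates, and GSTF9, GSTF10, GSTF11 and GSTU20 have been linked to glucosinolate synthesis. GSTU19 is a herbicide-detoxifying enzyme of high activity. GSTU24 and GSTU25 act on nitroaromatic compounds, and GSTU17 (named ERD9 in the RefSeq annotation) is a drought and light response gene.

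Bases upstream of 4 members are shown because they hold the extremes of the set: GSTU8 had the largest rise among the better expressed genes, and GSTU9, GSTU7 and GSTU1 were the 3 members with more than 1 copy of the motif TGACG, the core of the as-1 element bound by TGA transcription factors. Each line gives the 250 bases before the annotated gene start in RefSeq TAIR10.1, 5′ to 3′ on the gene's strand, which is the minus strand for all 4, at chr3:2849687-2849936 (GSTU8), chr5:25089627-25089876 (GSTU9), chr2:12618900-12619149 (GSTU7) and chr2:12632539-12632788 (GSTU1). Capitals mark TGACG on either strand (CGTCA on the other), and overlapping copies are counted apart.
GSTU8: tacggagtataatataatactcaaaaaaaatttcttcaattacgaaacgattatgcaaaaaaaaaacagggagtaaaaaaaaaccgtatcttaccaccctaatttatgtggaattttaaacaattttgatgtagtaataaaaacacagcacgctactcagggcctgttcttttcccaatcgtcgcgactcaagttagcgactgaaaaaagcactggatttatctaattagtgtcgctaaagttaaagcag
GSTU9: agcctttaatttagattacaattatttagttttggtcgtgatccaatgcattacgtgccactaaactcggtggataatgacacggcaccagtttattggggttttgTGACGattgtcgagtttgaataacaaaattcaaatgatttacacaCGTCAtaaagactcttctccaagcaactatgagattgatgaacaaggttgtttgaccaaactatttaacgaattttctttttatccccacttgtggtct
GSTU7: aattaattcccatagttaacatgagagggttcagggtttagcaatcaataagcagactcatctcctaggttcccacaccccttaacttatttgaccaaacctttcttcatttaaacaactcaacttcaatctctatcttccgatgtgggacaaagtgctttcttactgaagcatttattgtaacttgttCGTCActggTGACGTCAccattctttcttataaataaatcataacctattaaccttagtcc
GSTU1: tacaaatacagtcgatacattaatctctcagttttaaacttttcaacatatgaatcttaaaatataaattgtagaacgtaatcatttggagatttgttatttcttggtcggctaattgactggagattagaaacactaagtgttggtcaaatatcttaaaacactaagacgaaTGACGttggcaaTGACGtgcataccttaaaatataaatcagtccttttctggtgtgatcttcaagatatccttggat

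The copies begin 144 and 99 bases before the start in GSTU9, 61, 52 and 49 bases before it in GSTU7, where the last pair overlaps, and 77 and 65 bases before it in GSTU1. GSTU8 had no copy in this window. Over the set, 14 of 37 upstream windows (37.8%) held TGACG, against 18.6% of the 27443 windows of the same length before protein-coding genes. Of the W-box forms bound by WRKY factors, TTGACC was in 9 of 37 windows (24.3%), against 12.2% of all windows, and TTGACT was in 13 of 37 (35.1%), against 19.1%. All motifs were searched on both strands. Tandem copies share ancestry, so these windows are not independent, and the shares are a description. TGACG was present in 6 of 11 genes that rose in ka120, in 4 of 13 that fell and in 3 of 7 that were tested and not called.

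The members are unequal in expression. Levels are given per kilobase of coding sequence, and 4 genes led when averaged over the genotypes. Reads also fall on untranslated exon bases, whose share differs between genes. Exon length was 1471 bases in GSTF2, 1233 in GSTF9, 1147 in GSTU20 and 1120 in GSTU19, against 639, 648, 654 and 660 coding bases. The order of genes therefore holds for this divisor and may change with exon length. GSTF9 had 980 ± 63.2 CPM per kilobase in ka120 pad4, 684 ± 125 in ka120 ndr1, 647 ± 24.5 in ka120 and 875 ± 155 in Col-0 (SD, n = 3; CPM are counts scaled to the effective library size). GSTU20 had 1003 ± 93.9, 570 ± 25.4, 446 ± 78.4 and 927 ± 66.3 CPM per kilobase in ka120 pad4, ka120 ndr1, ka120 and Col-0, so that it exceeded GSTF9 in mean in ka120 pad4 and Col-0 but not in the other genotypes, with an overlap of the SD ranges in ka120 pad4 and Col-0. GSTF2 had 495 ± 177, 427 ± 84.7, 765 ± 172 and 85.0 ± 10.7 CPM per kilobase in the same order, which placed it above GSTF9 in mean in ka120 alone, within their SDs. GSTU19 followed with 391 ± 11.9, 331 ± 17.4, 375 ± 20.5 and 499 ± 41.9 CPM per kilobase. At the other end, the tested genes GSTU3, GSTF14, GSTU11, GSTU22, GSTU25 and GSTU2 averaged under 1 CPM per kilobase.

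Summed over the class, tau genes took 0.139% ± 0.00437 of all counts in ka120 pad4, 0.105% ± 0.00311 in ka120 ndr1, 0.101% ± 0.00254 in ka120 and 0.141% ± 0.00326 in Col-0 (SD, n = 3). Phi genes took 0.147% ± 0.0184, 0.129% ± 0.0121, 0.158% ± 0.0206 and 0.0797% ± 0.00848 in the same genotypes. Thus the phi share was higher in all 9 mutant libraries than in the 3 Col-0 libraries, and the tau share in ka120 and ka120 ndr1 was below that in Col-0 without overlap. The tau share of ka120 pad4 libraries, 0.143%, 0.134% and 0.140%, overlapped the 0.144%, 0.141% and 0.138% of Col-0. All these shares are of raw totals, not of the effective library size used for CPM. The effective size was below the total in every Col-0 library and above it in every mutant library. Scaling to it would raise Col-0 relative to the mutants, so this overlap does not show equal tau levels on the CPM scale. The class sums follow a few abundant genes and were not tested.

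**Figure D1:**
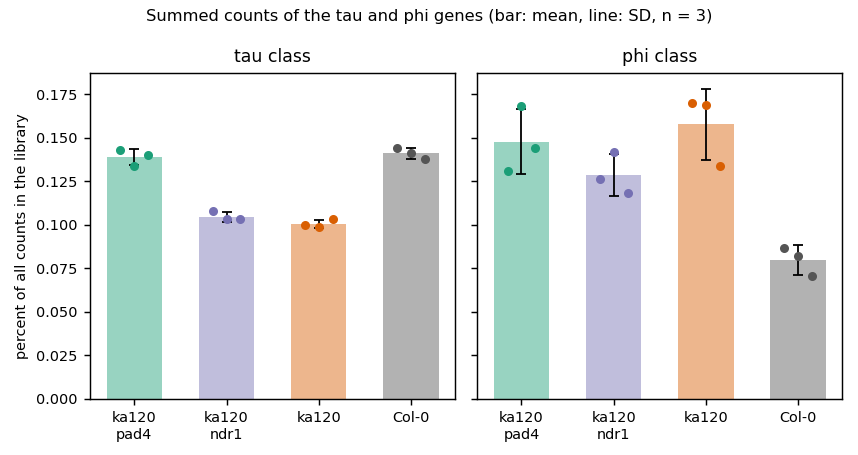
Percent of all counts per library (raw totals, without TMM factors) taken by the tau genes (left) and the phi genes (right) in the 4 genotypes. Bars are means, lines SDs and dots the 3 libraries. Tau averaged 0.101% in ka120 and 0.141% in Col-0, while phi averaged 0.158% in ka120 and 0.0797% in Col-0.

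In ka120 against Col-0, 11 of the 31 tested genes rose and 13 fell, and neither class moved as 1 block. Over all genes tested, 54.9% were called in this comparison, 28.0% higher and 27.0% lower, so the share of members that moved stands beside a large background. Calls are at a Benjamini-Hochberg adjusted p under 0.05 in the edgeR quasi-likelihood test, and each change is given as a log2 fold change ± its approximate SE. The median change of the 31 genes was -0.12 on the log2 scale, against 0.02 over all genes tested. The phi class had 4 genes higher and 2 lower of 7, and the tau class 7 higher and 11 lower of 24. In all 24 called genes the 3 ka120 libraries did not overlap the 3 Col-0 libraries. Libraries did not overlap for 26 of the 31 members and for 63.3% of all tested genes. In leaf RNA of this kind, fewer cells of a type and less RNA per cell cannot be told apart.

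GSTU8 (AT3G09270, chromosome 3, bases 2848183 to 2849686) rose most among genes of at least 5 CPM. It had 5.84, 7.55 and 7.21 CPM in ka120 pad4, 7.88, 7.27 and 9.24 CPM in ka120 ndr1, 24.8, 28.2 and 16.7 CPM in ka120, and 0.260, 0.944 and 0.737 CPM in Col-0. The Col-0 libraries were all under 1 CPM, ka120 was highest, and the double mutants lay between without overlapping either. The change in ka120 against Col-0 was 5.16 ± 0.33 (adjusted p = 1.48e-07).

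GSTF7 (AT1G02920, chromosome 1, bases 658578 to 659980), a phi gene induced by pathogens and salicylic acid, had 22.3, 54.8 and 49.4 CPM in ka120 pad4, 37.1, 47.8 and 29.0 CPM in ka120 ndr1, 77.7, 73.8 and 38.3 CPM in ka120, and 5.79, 4.05 and 5.13 CPM in Col-0. All 9 mutant libraries were above the Col-0 ones, and the mutants overlapped each other. The change in ka120 was 3.66 ± 0.37 (adjusted p = 4.27e-06). GSTF7 shares 93.8% of its protein sequence with GSTF6, which is not in the set, and reads of such a pair may be split uncertainly. The summed counts of both genes gave 2.50 ± 0.26 in ka120 (adjusted p = 6.19e-06).

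GSTF2 (AT4G02520) is the indole-binding enzyme and was, within ka120, the most abundant of the genes that rose. It had 193, 416 and 339 CPM in ka120 pad4, 259, 333 and 227 CPM in ka120 ndr1, 505, 590 and 372 CPM in ka120, and 46.5, 57.4 and 59.1 CPM in Col-0. Again every mutant library exceeded every Col-0 library. The change in ka120 was 3.17 ± 0.27 (adjusted p = 1.14e-06), and the sum with its near copy GSTF3 (92.5% identical in protein) gave the same 3.17 ± 0.27. GSTF3 had only 0.186 ± 0.0908 CPM in ka120, so the sum could hardly differ and does not test how reads were split. GSTF2 (chromosome 4, bases 1110343 to 1112033) overlaps TOC159 on the opposite strand by 1442 bases, and the sources used here do not give the strand setting of the counting. TOC159 had 302 ± 24.4 CPM in ka120 and 342 ± 15.2 CPM in Col-0 and was not called (adjusted p = 0.0731).

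GSTU4 (AT2G29460), the middle gene of an array of 7 on chromosome 2, had 4.76, 9.75 and 14.3 CPM in ka120 pad4, 4.52, 7.18 and 5.08 CPM in ka120 ndr1, 11.9, 15.2 and 8.42 CPM in ka120, and 0.732, 2.43 and 1.45 CPM in Col-0. Its change in ka120 was 2.95 ± 0.45 (adjusted p = 0.000126), with no overlap with Col-0 in any mutant. The other genes that rose were GSTU9 at 4.23 ± 0.45, GSTU3 at 3.55 ± 1.33, GSTU10 at 1.78 ± 0.40, GSTF8 at 0.89 ± 0.20 and GSTF10 at 0.59 ± 0.08. GSTF8, a chloroplast-targeted enzyme used as a marker of early stress responses, had 410, 296 and 241 CPM in ka120 and 173, 174 and 166 CPM in Col-0. GSTU9, whose upstream bases are printed above, had 3.98, 4.21 and 3.24 CPM in ka120 against 0.325, 0.219 and 0.0709 CPM in Col-0. GSTU10 overlaps OTP87 by 21 bases on the same strand, and OTP87 rose by 2.03 ± 0.13 (adjusted p = 1.78e-07). GSTU10 also overlaps AT1G74580 by 279 bases on the opposite strand, and AT1G74580 was not called (-0.19 ± 0.17, adjusted p = 0.362).

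GSTU11 and GSTU22 had no count in any Col-0 library. GSTU11 had 34, 44 and 21 counts in ka120 libraries and GSTU22 had 36, 64 and 24. Set against a floor of 3 counts over the Col-0 group, GSTU11 was at least 23.6-fold higher and GSTU22 at least 29.6-fold higher in ka120, with adjusted p of 0.0371 and 0.000149. Many low counts in these libraries were multiples of 4, so this floor is below such a step. Each fold given as at least, here and below, therefore holds only for this floor.

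GSTU17 (AT1G10370, chromosome 1, bases 3396883 to 3398358) fell most. It had 120, 93.6 and 131 CPM in ka120 pad4, 126, 98.1 and 83.8 CPM in ka120 ndr1, 62.7, 53.6 and 74.3 CPM in ka120, and 239, 255 and 238 CPM in Col-0. Col-0 was highest, ka120 lowest, and the double mutants lay between with no overlap with either. The change in ka120 was -1.94 ± 0.16 (adjusted p = 1.1e-06). GSTU17 overlaps its array neighbour GSTU18 by 71 bases on the same strand, and GSTU18 changed by -0.26 ± 0.08.

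GSTU13 (AT1G27130, chromosome 1, bases 9425280 to 9426897), which takes part in indole glucosinolate turnover, had 26.5, 25.3 and 24.7 CPM in ka120 pad4, 17.9, 17.0 and 17.5 CPM in ka120 ndr1, 14.8, 14.2 and 17.6 CPM in ka120, and 59.9, 58.2 and 50.5 CPM in Col-0. All mutants were below Col-0, ka120 pad4 stood above the other mutants, and ka120 ndr1 overlapped ka120. The change in ka120 was -1.85 ± 0.09 (adjusted p = 3.2e-08).

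GSTU26 (AT1G17190, chromosome 1, bases 5875295 to 5876620) had 3.01, 1.94 and 2.89 CPM in ka120 pad4, 2.08, 2.59 and 2.13 CPM in ka120 ndr1, 1.71, 1.37 and 1.85 CPM in ka120, and 5.08, 5.53 and 5.64 CPM in Col-0, a change in ka120 of -1.72 ± 0.19 (adjusted p = 1.2e-05). GSTF11 (AT3G03190, chromosome 3, bases 734892 to 735987), tied to aliphatic glucosinolate synthesis, had 28.0, 17.7 and 19.8 CPM in ka120 pad4, 15.2, 13.9 and 13.4 CPM in ka120 ndr1, 6.39, 7.33 and 10.4 CPM in ka120, and 23.1, 19.7 and 18.5 CPM in Col-0. Its change in ka120 was -1.35 ± 0.19 (adjusted p = 7.31e-05), and ka120 pad4 overlapped Col-0. GSTF11 lies wholly (1096 bases) inside NAC045 on the opposite strand, and NAC045 changed by -1.36 ± 0.18 in ka120. The libraries were strand-specific, but without the strand setting of the counting, reads of these 2 genes may not be separable.

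GSTU20 (AT1G78370, chromosome 1, bases 29484120 to 29485389) had 726, 612 and 630 CPM in ka120 pad4, 382, 353 and 382 CPM in ka120 ndr1, 272, 253 and 350 CPM in ka120, and 650, 563 and 605 CPM in Col-0, a change in ka120 of -1.06 ± 0.11 (adjusted p = 6.76e-06). GSTF9 (AT2G30860) had 638, 674 and 593 CPM in ka120 pad4, 536, 406 and 388 CPM in ka120 ndr1, 402, 421 and 434 CPM in ka120, and 634, 615 and 452 CPM in Col-0, a smaller change of -0.44 ± 0.14 (adjusted p = 0.0157). For both genes the ka120 pad4 libraries overlapped Col-0 and ka120 did not. GSTU19 (AT1G78380) had 249, 262 and 262 CPM in ka120 pad4, 227, 223 and 205 CPM in ka120 ndr1, 244, 263 and 237 CPM in ka120, and 328, 358 and 302 CPM in Col-0, a change in ka120 of -0.41 ± 0.07 (adjusted p = 0.000375), with all mutants below Col-0. The others that fell were GSTU1 at -1.14 ± 0.28, GSTU5, an auxin-inducible gene, at -0.93 ± 0.09, GSTU6 at -0.62 ± 0.23, GSTU16 at -0.45 ± 0.08, GSTU7 at -0.38 ± 0.10 and GSTU18 at -0.26 ± 0.08.

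The 7 tested genes with no call in ka120 were GSTU2 at -0.39 ± 1.41, GSTU23 at -0.35 ± 0.28, GSTU24 at 0.81 ± 0.37, GSTU25 at -0.05 ± 0.95, GSTU27 at 0.23 ± 0.10, GSTU28 at -0.12 ± 0.24 and GSTF14 at 1.00, with 0.287 ± 0.0530 CPM in ka120 and 0.141 ± 0.123 CPM in Col-0. Of the 5 genes with a count that were not tested, GSTU12 had 8 counts in ka120 pad4 and GSTU14 had 4 in Col-0, each with none in the other genotypes. GSTU15 had 10 counts in ka120 pad4 and 18 in ka120, and GSTF13 had 9 in ka120. GSTF3 averaged 0.291 ± 0.142 CPM per kilobase in ka120 and 0.0370 ± 0.0640 in Col-0.

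**Figure D2:**
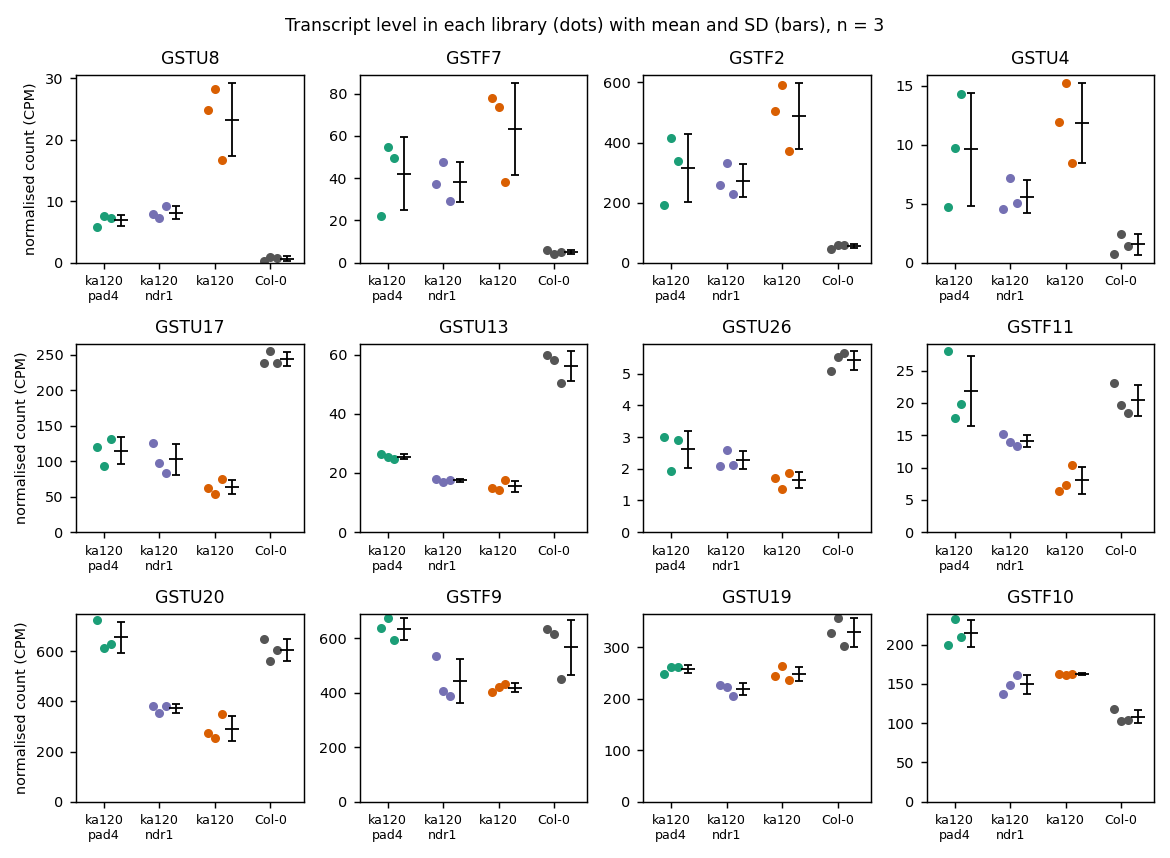
CPM of 12 members in each of the 12 libraries (dots), with mean and SD (n = 3), on linear axes that start at 0. GSTU8 was between 16.7 and 28.2 CPM in ka120 and under 1 CPM in Col-0, while GSTU17 was between 53.6 and 74.3 CPM in ka120 and between 238 and 255 CPM in Col-0.

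**Figure D3:**
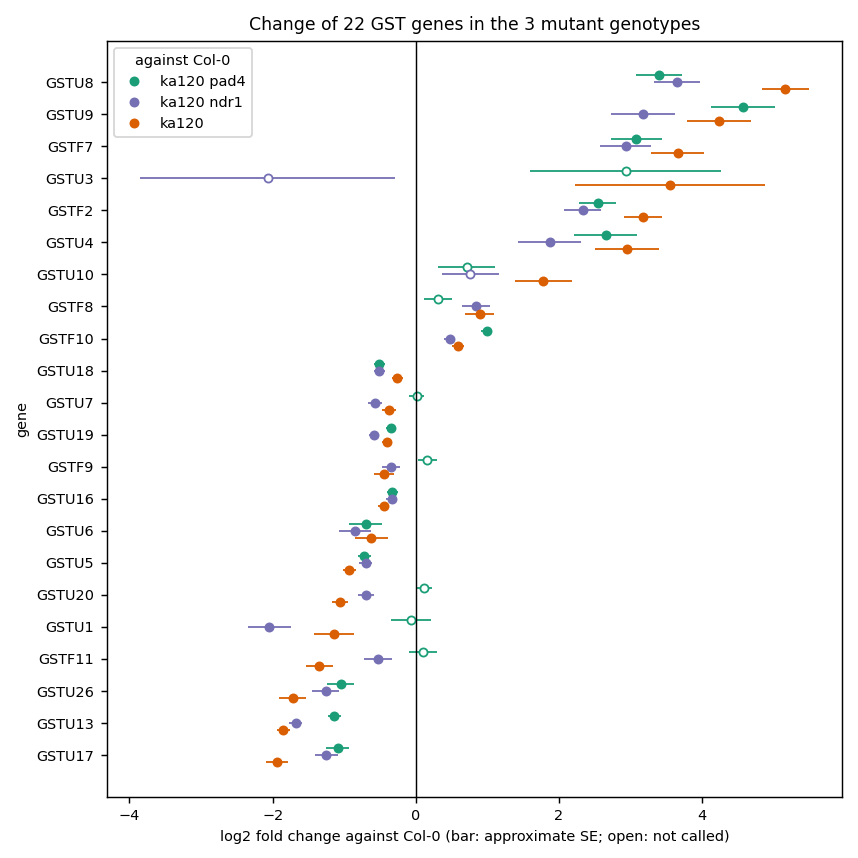
Log2 fold change against Col-0 of the 22 members called in ka120 against Col-0 that had a count in Col-0, for the 3 mutant genotypes; bars are approximate standard errors and open symbols were not called. GSTU8 was at 3.40, 3.65 and 5.16 in ka120 pad4, ka120 ndr1 and ka120.

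Several measures moved with these changes, and their part in them was not tested. Among the 11 genes that rose, ka120 replicate 3 was the lowest ka120 library for 9, and ka120 pad4 replicate 1 was the lowest of its genotype for 8. Among the 13 that fell, ka120 replicate 3 was the highest of its genotype for 7. The 4 mesophyll markers summed to 24738 to 29396 CPM in ka120 pad4, 23789 to 25645 in ka120 ndr1, 19957 to 22816 in ka120 and 38032 to 40103 in Col-0, and all 4 fell in ka120. The 2 phloem markers summed to 124 to 143 CPM in ka120 against 248 to 291 CPM in Col-0, and 1 fell. The 4 guard cell markers summed to 60.0 to 68.4 CPM in ka120 against 72.9 to 79.1 CPM in Col-0, and 3 fell. The 3 epidermis markers gave 626 to 744 CPM in ka120 and 711 to 839 CPM in Col-0, and 1 fell. The 4 shoot meristem and flower markers gave 8.50 to 11.0 CPM in ka120 and 5.79 to 6.64 CPM in Col-0, and 2 rose. The 6 root markers stood at 52.0 to 55.7 CPM in ka120 and 51.6 to 59.5 CPM in Col-0, with EXPA7 at 0 in every genotype and 1 gene higher in ka120.

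Scaling by total counts instead of TMM, tried after the data were seen, shifted the median of all genes in ka120 against Col-0 to 0.346. Under it 13 members were higher and 7 lower, and GSTU18 turned to 0.07 (adjusted p = 0.442). The falls of GSTU6, GSTU7, GSTU16, GSTU19 and GSTF9 lost their calls but kept their sign. These calls, and the direction of GSTU18, are therefore relative to the bulk of genes. Single libraries also decided some calls, with adjusted p after their removal given as a range: GSTU3 without Col-0 replicate 1 or 3 or ka120 replicate 2 or 3 (0.0574 to 0.109), GSTU6 without Col-0 replicate 2 or 3 or ka120 replicate 1 or 3 (0.057 to 0.142), GSTU11 without any 1 Col-0 library or ka120 replicate 1 or 2 (0.0619 to 0.0825), GSTU18 without replicate 2 of either genotype (0.0759 and 0.0809) and GSTF9 without Col-0 replicate 1 or 2 or ka120 replicate 1 (0.0545 to 0.0706). The call of GSTU3 also ended by DESeq2 (adjusted p = 0.108) and by limma on the deposited log2 values (adjusted p = 0.0601), and that of GSTU6 with a replicate block (adjusted p = 0.0605) and in an edgeR fit to the 2 groups alone (adjusted p = 0.0614).

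Many members lie in tandem arrays, where neighbouring copies moved in different directions. GSTU1 to GSTU7 form an array of 14603 bases on chromosome 2 (bases 12617936 to 12632538). In ka120 against Col-0, GSTU3 and GSTU4 in its middle rose and GSTU1, GSTU5, GSTU6 and GSTU7 around them fell, where the calls of GSTU3, GSTU6 and GSTU7 are those that other settings ended. The array GSTU19 to GSTU23 on chromosome 1 (bases 29467412 to 29488007) held 1 gene that rose (GSTU22), 2 that fell (GSTU19 and GSTU20), GSTU23 without a call, and GSTU21 without a count. GSTF9 and GSTF10, neighbours on chromosome 2 (bases 13138882 to 13142676) with 80.0% identical proteins, went opposite ways. The calls of GSTF9, GSTU18 and GSTU19 in ka120 also ended in other settings, as given above. Of the closely placed GSTU24, GSTU25 and GSTU26, only GSTU26 was called. Both GSTU17 and GSTU18 fell, and of the pair GSTU11 and GSTU12 and the pair GSTU13 and GSTU14 only 1 gene each was tested. Within the tau class, proteins were 29.1% to 81.7% identical over 378 pairs, and within the phi class 35.8% to 92.5% over 36 pairs. Identity between classes ran from 18.5% to 35.1%.

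**Figure D4:**
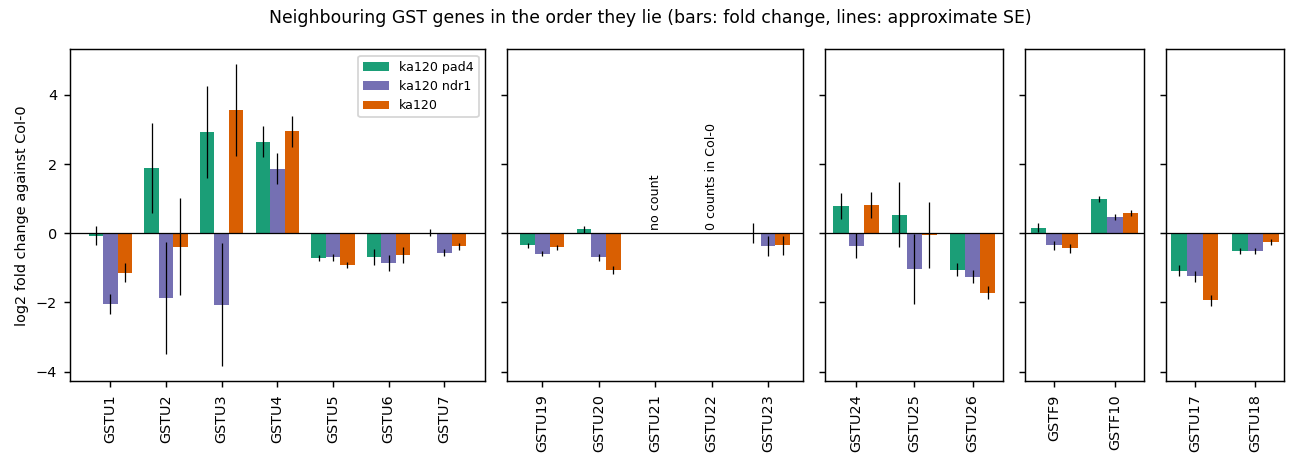
Log2 fold change against Col-0 of neighbouring members in tandem arrays, for the 3 mutant genotypes; lines are approximate standard errors. In the chromosome 2 array GSTU3 and GSTU4 stood at 3.55 and 2.95 in ka120, while GSTU1 and GSTU5 stood at -1.14 and -0.93.

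ka120 pad4 was set against ka120 to ask what the loss of PAD4 changes in the ka120 background. Of the 31 genes, 9 rose and 1 fell, against 9.83% of all tested genes higher and 8.39% lower (18.2% in either direction). The median change was 0.32, against 0.00 over all genes. The 9 genes were GSTU1, GSTU7, GSTU13, GSTU17, GSTU20, GSTU26, GSTF9, GSTF10 and GSTF11, and GSTU8 fell.

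Of these 9, 8 had fallen in ka120 against Col-0, but both comparisons use the same ka120 libraries, so the values only stand side by side. GSTF11 rose by 1.45 ± 0.19 (adjusted p = 0.00114), with no overlap between the libraries, and NAC045, in which it lies, rose by 1.21 ± 0.18 (adjusted p = 0.00189). GSTU20 rose by 1.17 ± 0.11 (adjusted p = 0.000365), and all 3 ka120 pad4 libraries, at 612 CPM or more, exceeded the 350 CPM of the highest ka120 library. GSTU17 rose by 0.85 ± 0.16 (adjusted p = 0.00424) and still stood below Col-0 by -1.09 ± 0.16. The remaining ones were GSTU1 at 1.07 ± 0.28, GSTU13 at 0.72 ± 0.09, GSTU26 at 0.67 ± 0.19, GSTF9 at 0.60 ± 0.14, GSTF10 at 0.40 ± 0.08 and GSTU7 at 0.39 ± 0.10.

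GSTU7 (AT2G29420), whose upstream bases hold 3 copies of TGACG, had 24.1, 24.3 and 24.2 CPM in ka120 pad4, 17.2, 17.0 and 14.6 CPM in ka120 ndr1, 19.8, 17.9 and 17.7 CPM in ka120, and 20.5, 24.6 and 27.1 CPM in Col-0. Its ka120 pad4 libraries were nearly equal and lay inside the Col-0 range. The noncoding gene AT2G08340 overlaps GSTU7 by 636 bases on the opposite strand and stood at 0.56 ± 0.20 (adjusted p = 0.0673) in ka120 pad4 against ka120. GSTF10 (AT2G30870) had 200, 233 and 210 CPM in ka120 pad4, 137, 149 and 162 CPM in ka120 ndr1, 163, 161 and 163 CPM in ka120, and 118, 103 and 104 CPM in Col-0. It is the only member called higher both in ka120 against Col-0 and in ka120 pad4 against ka120.

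GSTU8 fell by 1.76 ± 0.26 on the log2 scale (adjusted p = 0.00181). Other genes that had risen strongly in ka120 were not called here, among them GSTF2 at -0.63 ± 0.25 (adjusted p = 0.099), GSTF7 at -0.59 ± 0.32 (adjusted p = 0.248), GSTU4 at -0.30 ± 0.40 (adjusted p = 0.662) and GSTU9 at 0.34 ± 0.35 (adjusted p = 0.559). In these 4 genes ka120 pad4 replicate 1 was the lowest of its genotype. Of the mesophyll markers, 2 of 4 were called higher in ka120 pad4 than in ka120, and LHCB2.1 stood at -0.09 ± 0.09. The phloem markers summed to 167 to 185 CPM in ka120 pad4 against 124 to 143 CPM in ka120, with 1 of 2 called higher, and the shoot meristem and flower markers to 11.9 to 12.8 CPM in ka120 pad4 against 8.50 to 11.0 CPM in ka120, with 1 of 4 called higher. The part of these markers was not tested. PAD4 itself had 7.73 to 19.1 CPM in ka120 pad4, 54.6 to 107 CPM in ka120 and 4.60 to 5.54 CPM in Col-0, so its transcript level alone does not check that label. NDR1 had at most 0.166 CPM in ka120 ndr1, and the locus taken from background knowledge as KA120 (AT3G08960) had 3.64 to 6.03 CPM over the mutants against 24.2 to 33.0 CPM in Col-0.

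Calls that ended without single libraries were GSTU1 without replicate 1 or 2 of ka120 or replicate 3 of ka120 pad4 (adjusted p 0.0776 to 0.0989), GSTU7 without replicate 2 or 3 of ka120 or replicate 1 or 3 of ka120 pad4 (0.0543 to 0.088) and GSTU26 without replicate 1 or 2 of ka120 or replicate 1 or 3 of ka120 pad4 (0.0784 to 0.136). The count of genes that fell was 4 without ka120 replicate 3, 3 without ka120 pad4 replicate 2 and 2 without ka120 pad4 replicate 1. Over all genes, 4072 were called in either direction with all libraries, against 4565, 4764 and 2400 in these 3 settings.

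ka120 ndr1 against ka120 asks the same of NDR1. Only GSTU17 and GSTF11 rose and GSTU8 fell, 3 of 31 genes, against 3.20% of all tested genes higher and 2.74% lower (5.94% in either direction). The median change was -0.23, against -0.00 over all genes. GSTU8 fell by 1.52 ± 0.26 on the log2 scale (adjusted p = 0.0113), GSTF11 rose by 0.82 ± 0.19 (adjusted p = 0.0301) and GSTU17 rose by 0.69 ± 0.16 (adjusted p = 0.0293). In each of the 3 the ka120 ndr1 libraries did not overlap the ka120 libraries. GSTF2 stood at -0.84 ± 0.25 (adjusted p = 0.0657), GSTF7 at -0.74 ± 0.32 (adjusted p = 0.192), GSTU20 at 0.35 ± 0.11 (adjusted p = 0.0793) and GSTU13 at 0.17 ± 0.09 (adjusted p = 0.278). GSTU3, also without a call, had 0.0466, 0 and 0 CPM in ka120 ndr1 against 0.505, 1.35 and 0.773 CPM in ka120, a fitted change of -5.61 ± 1.56 (adjusted p = 0.0559) that depends on the prior count. Libraries did not overlap for 18 of the 31 members and for 29.4% of all tested genes.

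These 3 calls rested on single libraries. Each ended without ka120 replicate 1, ka120 replicate 2 or ka120 ndr1 replicate 1 (adjusted p 0.0516 to 0.137), GSTU17 and GSTF11 also without ka120 ndr1 replicate 2 (0.0621 and 0.0675), and GSTF11 also without ka120 ndr1 replicate 3 (0.0571). Leaving out any 1 library of these genotypes moved the whole comparison, which had 1327 called genes with all libraries. It had 148 without ka120 replicate 1, 136 without ka120 replicate 2 and 211 without ka120 ndr1 replicate 1. Without ka120 ndr1 replicate 2 it had 459, without ka120 ndr1 replicate 3 it had 725, and without ka120 replicate 3 it rose to 2232. The count of members that fell was 2 without ka120 replicate 3 or ka120 ndr1 replicate 2, and 8 by DESeq2. DESeq2 called 2576 of all genes in either direction, so its member count stands beside a larger background.

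Against Col-0, ka120 pad4 had 8 members higher and 8 lower, with 21.6% and 20.3% of all tested genes called in these directions (42.0% in all). ka120 ndr1 had 8 higher and 13 lower, with 24.9% and 23.5% of all tested genes (48.4% in all). The medians were 0.20 in ka120 pad4 and -0.36 in ka120 ndr1, against 0.03 and 0.02 over all genes. These 2 comparisons and that of ka120 share the Col-0 libraries. GSTU8, GSTF7, GSTF2, GSTU4, GSTU9, GSTU22 and GSTF10 were higher than in Col-0 in every mutant. Their changes in ka120 pad4 and ka120 ndr1 were 3.40 ± 0.32 and 3.65 ± 0.32 for GSTU8, 3.08 ± 0.36 and 2.93 ± 0.36 for GSTF7 (2.17 ± 0.26 and 1.79 ± 0.26 when summed with GSTF6), 2.54 ± 0.26 and 2.33 ± 0.26 for GSTF2, and 2.65 ± 0.44 and 1.87 ± 0.44 for GSTU4. GSTU22, at 0 in Col-0, was at least 15.7-fold higher in ka120 pad4 and at least 16.4-fold higher in ka120 ndr1.

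GSTF8 was called higher in ka120 ndr1 at 0.84 ± 0.20 and stood at 0.31 ± 0.20 in ka120 pad4. GSTU11, at 0 in Col-0, was at least 33.4-fold higher in ka120 pad4, where ka120 pad4 replicate 3 held 106 of its 115 counts. Its call there ended without that library (adjusted p = 0.173) or any 1 Col-0 library (0.074 to 0.0785).

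All 13 genes that fell in ka120 were also lower in ka120 ndr1 than in Col-0 with TMM scaling. With total-count scaling 9 members were lower there, and GSTU6, GSTU16, GSTF9 and GSTF11 lost their calls (adjusted p 0.0579 to 0.684). The call of GSTF9 also ended without the low-count filter (adjusted p = 0.0567) and in the fit to the 2 groups (adjusted p = 0.0826). In ka120 pad4, 8 of them were lower (GSTU5, GSTU6, GSTU13, GSTU16, GSTU17, GSTU18, GSTU19 and GSTU26) and the other 5 had no call, at 0.11 ± 0.11 for GSTU20, 0.16 ± 0.13 for GSTF9, 0.10 ± 0.19 for GSTF11, 0.01 ± 0.10 for GSTU7 and -0.07 ± 0.28 for GSTU1. A missing call does not show that these levels equal those of Col-0. The calls of GSTF9 and GSTF11 in ka120 ndr1 ended without Col-0 replicate 1 or 2 or ka120 ndr1 replicate 2 or 3, and that of GSTF11 also without ka120 ndr1 replicate 1 (adjusted p 0.0514 to 0.171). The call of GSTU6 in ka120 pad4 ended without Col-0 replicate 2 or 3 or ka120 pad4 replicate 1 or 2 (0.0774 to 0.0948).

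**Figure D5:**
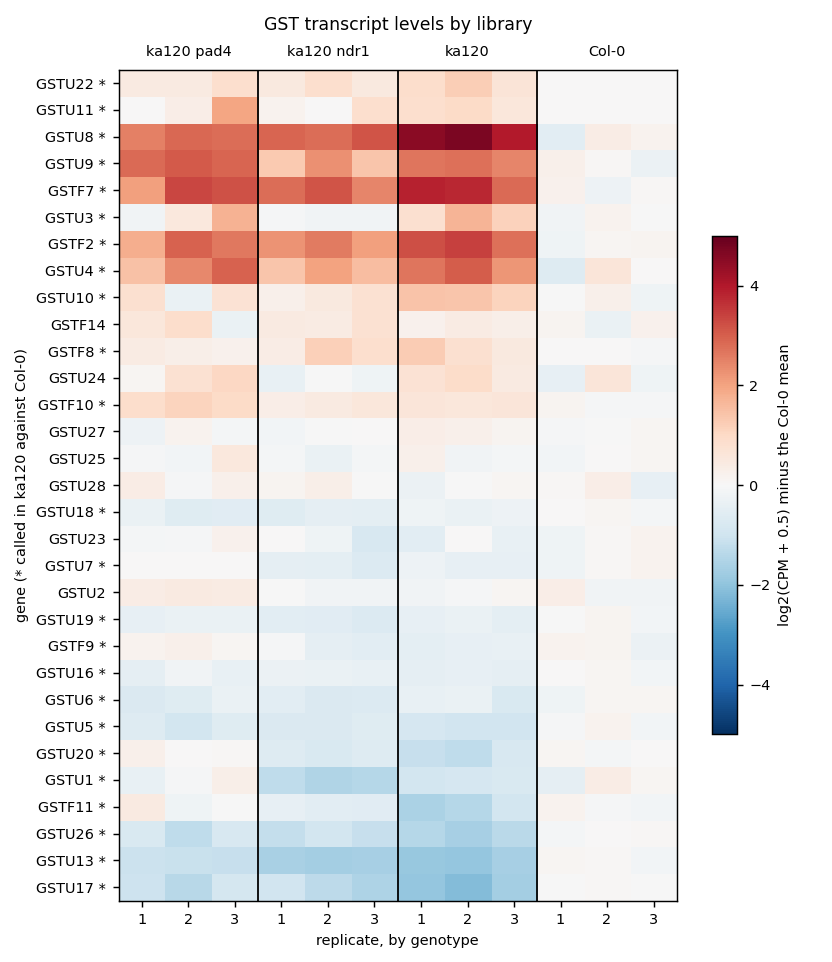
Level of each member in each of the 12 libraries as log2 of CPM plus 0.5 minus the mean of the Col-0 libraries, for the 31 tested genes (rows) and 12 libraries (columns); asterisks mark genes called in ka120 against Col-0. GSTU8, GSTF7 and GSTF2 were higher, and GSTU17 and GSTU13 lower, in all 9 mutant libraries than in the Col-0 libraries.

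ka120 pad4 against ka120 ndr1 tests the difference between the double mutants directly. Here 5 genes were higher in ka120 pad4, GSTU20, GSTU1, GSTU7, GSTU13 and GSTF10, against 1.51% of all tested genes (2.39% in either direction). By edgeR 0 members were lower at the adjusted threshold, 1 was lower at an unadjusted p under 0.05, and DESeq2 and limma called 0. GSTU1 differed by 1.98 ± 0.30 (adjusted p = 0.00735), with 1.71, 2.29 and 3.02 CPM in ka120 pad4 and 0.700, 0.513 and 0.563 CPM in ka120 ndr1. GSTU20 differed by 0.82 ± 0.11 (adjusted p = 0.00525), GSTU7 by 0.57 ± 0.10 (adjusted p = 0.0152), GSTU13 by 0.55 ± 0.09 (adjusted p = 0.0101) and GSTF10 by 0.52 ± 0.08 (adjusted p = 0.00777). The call of GSTU7 ended without ka120 pad4 replicate 3 (adjusted p = 0.0616) or ka120 ndr1 replicate 3 (0.0562). GSTU8 differed by -0.24 ± 0.26 (adjusted p = 0.686) and GSTF2 by 0.21 ± 0.25 (adjusted p = 0.712).

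Other genes of glutathione metabolism and detoxification were read from lists by role. Of 10 tested genes for glutathione synthesis, recycling and turnover, 4 rose and 6 fell in ka120 against Col-0, where 28.0% of all tested genes were higher and 27.0% lower; the counts of the lists that follow have the same background. GSH1, which makes the first intermediate of glutathione, had 149 CPM in ka120 and 261 CPM in Col-0, a change of -0.81 ± 0.06, and was higher in ka120 pad4 than in ka120 by 0.42 ± 0.06 (adjusted p = 0.00189). The chloroplast and mitochondrial glutathione reductase GR2 fell (-0.89 ± 0.07), as did the gamma-glutamyl transferase GGT1 (-0.89 ± 0.13) and the glutathione-degrading GGCT2;3 (-0.81 ± 0.08), while GGCT2;1 of the same family rose (1.52 ± 0.32).

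Among 12 genes of other GST classes, 6 rose and 4 fell. GSTL1 of the lambda class, at 0 in Col-0, was at least 44.2-fold higher in ka120, and GSTL2 fell (-1.18 ± 0.06). GSTZ1, which acts in tyrosine breakdown, rose by 1.32 ± 0.18, and GSTT2 of the theta class rose by 0.83 ± 0.07. Of the 4 listed genes of the ABCC transporter family, 3 rose and 1 fell. ABCC3 had 404 CPM in ka120 against 52.3 CPM in Col-0, a change of 2.95 ± 0.14. ABCC4 and ABCC1 stood at 0.94 ± 0.08 and 0.39 ± 0.06, and ABCC2 at -0.33 ± 0.08.

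Of 13 genes for TGA factors, their partner SCL14 and their detoxification targets, 7 rose and 2 fell in ka120. The glucosyltransferase UGT73B4, at 0 in Col-0, was at least 11.5-fold higher, but with 0.179 ± 0.156 CPM in ka120 (SD, n = 3) its libraries overlapped those of Col-0 (adjusted p = 0.038). By limma 6 genes of this list were higher. The cytochrome P450 gene CYP81D8 rose by 1.78 ± 0.34 and the glucosyltransferase UGT74E2 by 1.43 ± 0.27, whereas the oxophytodienoate reductase gene OPR2 fell (-1.24 ± 0.19). In ka120 pad4 against ka120, where 9.83% of all tested genes were higher and 8.39% lower, 4 of the 10 glutathione genes rose, among them GSH1, GSH2 and GR2. ABCC1, ABCC3 and ABCC4 fell, ABCC3 by 0.48 ± 0.13 on the log2 scale (adjusted p = 0.0269). Of the 12 genes of other GST classes 3 rose and 0 fell, and of the 13 genes for TGA factors and their targets 1 rose and 0 fell.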

How the data were processed

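Strand-specific libraries from mRNA of leaf RNA (about 50 mg of tissue per sample, per the labels' protocols) were sequenced as read pairs of 150 bases. HISAT2 2.0.4, HTSeq 0.6.1p1 and TAIR10 appear in the submitters' processing notes. The authors deposited a table of expected counts (estimated counts) per gene, all whole as deposited (rounding changed nothing). Between 45.7% and 48.1% of values from 4 to 40 were multiples of 4, against 25% by chance, for a reason no source states. A second table by the authors has log2 values of 22605 genes, which equalled the log2 of count plus 0.5 minus a constant per library, per a check of the values.

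Totals ran from 68436911 to 85884840 counts per library, which limits precision only for genes of few counts, and correlations of log2 CPM were 0.976 to 0.983 within genotypes. Counts were tested with edgeR 4.0.16 in R 4.3.3 (quasi-likelihood F test, TMM factors, default low-count filter, 1 coefficient per genotype, all 12 libraries, 8 residual degrees of freedom). Standard errors divide the size of the log2 fold change by the root of F. A prior count of 2 was used for log2 CPM. On simulated counts for ka120 against Col-0 (22351 genes), 83, 67 and 50 genes were changed by 1.5-fold, 2-fold and 4-fold. Of these, 51.8%, 71.6% and 92.0% were recovered, and 5.52% of calls were false. In the data 54.9% of tested genes were called in this comparison, a far larger share, so the simulated rates need not hold there. Alternatives were DESeq2 1.42.0, limma 3.58.1 on the deposited log2 values, other scalings and filters, a replicate block, fits to 2 groups and leaving out each library.

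Members and lists were chosen with earlier results of these data known. Values in all libraries are given for the 8 called members of largest change in ka120 against Col-0 and up to 4 in each other comparison, given 5 CPM or more on average in the higher genotype, and for the 4 highest per kilobase. From each related list up to 4 called genes of largest change in ka120 are named. GSH1, GSH2, TOC159, NAC045, OTP87, AT1G74580, AT2G08340, GSTU1, GSTU5, GSTU9, GSTF8 and the library values of genes under 5 CPM were added for context after their values were seen. Symbols, positions, protein identities and upstream bases came from RefSeq TAIR10.1, used for the authors' TAIR10 identifiers.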

Additional observations from a re-analysis of the deposited data

How the results depend on the processing

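Over 31 genes and 6 comparisons, DESeq2 size factors kept the verdict, called or not, in 185 of 186 cases, upper-quartile factors all 186, and limma on the deposited log2 values 183. DESeq2 kept 164 of 182 (17 gained, 1 lost), the fit to the 2 groups 157 of 171 (7 gained, 7 lost) and total-count scaling 160 of 186 (12 gained, 13 lost, 1 reversed). Beside the losses given with the results, the fit to the 2 groups ended the calls of GSTU26 in ka120 pad4 against ka120 (adjusted p = 0.103), GSTU17 in ka120 ndr1 against ka120 (0.0512), GSTU6 in ka120 pad4 against Col-0 (0.0523), and GSTU7 and GSTF10 in ka120 pad4 against ka120 ndr1 (0.0539 and 0.0579). Limma ended that of GSTU11 in ka120 pad4 against Col-0 (0.102). Total-count scaling ended those of GSTU6, GSTU16 and GSTU19 in ka120 pad4 against Col-0 (0.123 to 0.458) and of GSTU7 in ka120 pad4 against ka120 (0.0601). Replicate numbers did not pair the libraries (correlations of same-numbered deviations -0.0546 to 0.106), and with a replicate block 180 of 186 verdicts were kept (5 gained, and GSTU6 in ka120 against Col-0 lost), while members lower became 2 rather than 1 in ka120 pad4 against ka120 and in ka120 ndr1 against ka120. Members lower in ka120 pad4 against ka120 (1) numbered 2 with DESeq2 size factors, 4 by DESeq2, 2 by limma and 5 with total-count scaling. Over all genes, 4072 were called in either direction in the main fit, against 4078, 4920, 4061 and 4410 in these settings. In ka120 ndr1 against ka120, members higher (2) numbered 1 in a fit to the 2 groups, and members lower (1) numbered 8 by DESeq2, 6 in that fit and 2 with total-count scaling. All called genes there numbered 1327 in the main fit, 2576 by DESeq2, 1211 in the fit to the 2 groups and 1272 with total-count scaling. Members higher in ka120 pad4 against ka120 ndr1 (5) numbered 10 by DESeq2 and 3 in the fit to the 2 groups. All called genes in this comparison numbered 535 in the main fit, 1495 by DESeq2 and 76 in the fit to the 2 groups. With total-count scaling, members lower numbered 7 in ka120, 9 in ka120 ndr1 and 5 in ka120 pad4 against Col-0, the medians against Col-0 were 0.45 in ka120 pad4, -0.07 in ka120 ndr1 and 0.21 in ka120, GSTU18 in ka120 turned to 0.07, and the lists for transport and for TGA and SCL14 had 0 and 1 genes lower. That scaling alone reversed a direction, of GSTU18. The cause of these differences was not tested.

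Without single libraries, members higher and lower numbered 9 to 11 and 10 to 12 in ka120 against Col-0, 6 to 10 and 1 to 4 in ka120 pad4 against ka120, 0 to 3 and 0 to 2 in ka120 ndr1 against ka120, 7 to 10 and 7 to 8 in ka120 pad4 against Col-0, 8 to 8 and 11 to 13 in ka120 ndr1 against Col-0, and 4 to 6 and 0 to 0 in ka120 pad4 against ka120 ndr1. Genes with few counts, such as GSTU2, GSTU25 and GSTF14, had standard errors of 0.93 to 1.62 on the log2 scale, so changes of that size were not detectable there.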
